A study of Mus musculus with 9 samples.

Results

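The 36 genes described here carry out glycolysis or belong to the response to low oxygen. They were chosen by symbol: the enzymes from hexokinase to lactate dehydrogenase, the transporters that carry glucose in and lactate out, 2 pyruvate dehydrogenase kinases, 9 targets of the hypoxia-inducible factors (HIFs) and the alpha subunits Hif1a and Epas1. All 36 were found among the 54232 genes of the table, and all 36 passed the filter on low counts. Polyadenylated RNA came from wild-type mouse embryonic stem cells that were differentiated as embryoid bodies, clusters of cells that differentiate together in suspension. The groups are EBD2, EBD5 and EBD6, with 3 libraries in each, and the labels list the genotype as wild type throughout, with no other allele or agent. They do not say what the number in a group name stands for, and the oxygen tension, the medium and the parent cell line are not stated in the labels.

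Libraries held 5453399 to 11703388 counts in named genes. EBD2 replicates 1 and 2, and EBD6 replicates 2 and 3, agree within sampling noise and were counted as 1 sample each in every test, which left 2, 3 and 2 samples. Levels are in CPM, which divides counts by the TMM-scaled size of the library, and are given for every library in the order of replicates 1 to 3. Since no label ties replicates to separate cultures, the p-values reflect the spread among these samples alone, and that spread may be technical. The summed level of 4 markers of pluripotent cells (Pou5f1, Nanog, Sox2 and Zfp42) was 842 to 978 CPM in EBD2, 711 to 781 CPM in EBD5 and 599 to 703 CPM in EBD6, and all 4 had counts in every group. The 4 did not move together from EBD2 to EBD5, where 1 was higher, 1 lower and 2 not called. Sox2 stood at 335 to 375 CPM in EBD2 and 156 to 178 CPM in EBD5, and Nanog at 177 to 195 and 230 to 240 CPM. In EBD6 against EBD5, 2 were lower and 2 not called. Over the same groups 6 markers of visceral endoderm, an outer layer of embryoid bodies, summed to 6.94 to 10.1, 2290 to 2331 and 1185 to 1265 CPM. All 6 were higher in EBD5 than EBD2 in the tests below. In EBD6 against EBD5, 2 of the 6 were higher, 3 lower and 1 not called. Cubn and Apob made up most of the sum in EBD5 and EBD6. Cubn stood at 1136 to 1157 CPM in EBD5 and 402 to 415 CPM in EBD6, whereas Afp stood at 71.7 to 75.4 and 129 to 147 CPM. In RNA from whole aggregates, fewer cells of a type and less RNA per cell cannot be told apart.

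Glycolysis splits glucose into pyruvate and yields ATP without oxygen, and pluripotent cells are known for running it at a high rate and for exporting lactate. HIF transcription factors pair an oxygen-sensitive alpha subunit with a stable beta subunit. When oxygen is present the Egln prolyl hydroxylases mark the alpha subunit and the Vhl ubiquitin ligase removes it, so much of this control acts on protein, which RNA levels do not measure. When oxygen is low the pair binds the letters ACGTG or GCGTG in hypoxia response elements near many glycolytic, transporter and angiogenic genes.

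The promoters of 4 members are shown because they bear on that shared element: Slc16a1, P4ha1 and Bnip3 rose from EBD2 to EBD5, and Egln3, a HIF target as well, fell. Each window runs from 250 bases before to 50 bases after the start of the gene in RefSeq (build GRCm38.p6), is written 5′ to 3′ on the strand of the gene, and has each ACGTG or GCGTG on either strand in capitals, with overlapping matches joined. The windows are chr3:104638414-104638713 (plus strand) for Slc16a1, chr10:59323046-59323345 (plus) for P4ha1, chr7:138909457-138909756 (minus) for Bnip3 and chr12:54203825-54204124 (minus) for Egln3.
Slc16a1: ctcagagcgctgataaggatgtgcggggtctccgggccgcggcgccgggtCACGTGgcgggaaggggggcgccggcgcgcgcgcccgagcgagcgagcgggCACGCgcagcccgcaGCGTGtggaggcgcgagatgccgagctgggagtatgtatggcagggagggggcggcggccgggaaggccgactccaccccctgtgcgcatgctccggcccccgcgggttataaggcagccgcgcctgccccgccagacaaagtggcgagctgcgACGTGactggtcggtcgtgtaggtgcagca
P4ha1: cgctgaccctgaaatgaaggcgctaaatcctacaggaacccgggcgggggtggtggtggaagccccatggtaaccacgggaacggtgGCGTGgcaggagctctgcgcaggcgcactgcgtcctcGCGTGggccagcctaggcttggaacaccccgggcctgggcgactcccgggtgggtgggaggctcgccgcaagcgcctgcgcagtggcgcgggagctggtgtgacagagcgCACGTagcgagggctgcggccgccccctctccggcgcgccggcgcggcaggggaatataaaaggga
Bnip3: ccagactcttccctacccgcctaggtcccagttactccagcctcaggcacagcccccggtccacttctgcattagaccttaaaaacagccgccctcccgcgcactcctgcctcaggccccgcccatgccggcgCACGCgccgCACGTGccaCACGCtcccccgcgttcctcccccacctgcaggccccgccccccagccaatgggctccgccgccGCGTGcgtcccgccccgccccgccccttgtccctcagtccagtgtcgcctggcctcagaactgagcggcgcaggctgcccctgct
Egln3: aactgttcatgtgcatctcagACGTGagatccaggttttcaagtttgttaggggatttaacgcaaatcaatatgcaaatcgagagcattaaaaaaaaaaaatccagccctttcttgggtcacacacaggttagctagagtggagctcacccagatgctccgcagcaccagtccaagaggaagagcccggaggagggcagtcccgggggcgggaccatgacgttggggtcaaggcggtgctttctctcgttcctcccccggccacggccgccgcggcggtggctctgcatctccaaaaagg

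Slc16a1 and Bnip3 each held 4 such sites, P4ha1 held 3 and Egln3 held 1. RefSeq windows were found for 33 of the 36 members, and Epas1, Ndrg1 and Slc2a3 had no entry. The letters were present in at least 1 window of 30 of the 33 members (90.9%), and Gpi1, Tpi1 and Eno2 held none in this window. Counted by window, 38 of 47 member windows (80.9%) held a site, as against 43.8% of all 32851 windows and 49.3% of the 21263 windows of protein-coding genes. Member windows were also richer in G and C, with a median of 62.3% against 56.3% over the protein-coding windows, and both motifs hold a CG step. A match is a description and not a binding site, and members that rose and members that fell both held matches.

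Most members differed between any pair of groups, and so did most genes. Comparing EBD5 with EBD2, 16 members were higher and 13 lower at an adjusted p under 0.05 (edgeR quasi-likelihood test, Benjamini-Hochberg adjustment), and 7 were not called. Of all 16168 genes tested 70.0% were called, 34.9% higher and 35.1% lower, so a count of 29 of 36 says little about these genes in particular. In EBD6 against EBD5, 14 members were higher, 17 lower and 5 not called, beside 70.2% called over all genes (36.9% higher and 33.3% lower). EBD6 against EBD2 gave 16 higher, 13 lower and 7 not called, beside 66.1% of all genes (33.8% higher and 32.3% lower). The median log2 fold change of the members was 0.10, -0.20 and 0.11 in these comparisons, and that of all genes -0.00995, 0.040 and 0.013. Members of the same role, and isozymes of the same step, moved in both directions.

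A stricter test, which asks for a change beyond 1.5-fold, kept 9 members higher and 9 lower in EBD5 than EBD2, where 34.7% of all genes passed it. It kept 8 higher and 5 lower in EBD6 than EBD5 (32.9% of genes) and 9 higher and 6 lower in EBD6 than EBD2 (30.4%). Removing the median fold change of genes of like GC content and length shifted the split in EBD6 against EBD5 to 10 higher and 20 lower (62.5% of genes called). With that correction EBD5 against EBD2 gave 18 and 12 (67.8%), and EBD6 against EBD2 gave 13 and 15 (66.5%). Across all tested genes, Spearman's rho of log2 fold change with GC content was -0.35, 0.53 and 0.16 in the 3 comparisons, and across the 36 members -0.35, 0.22 and -0.25. These are descriptions over genes of the same libraries, and genes are not replicates.

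**Figure D1:**
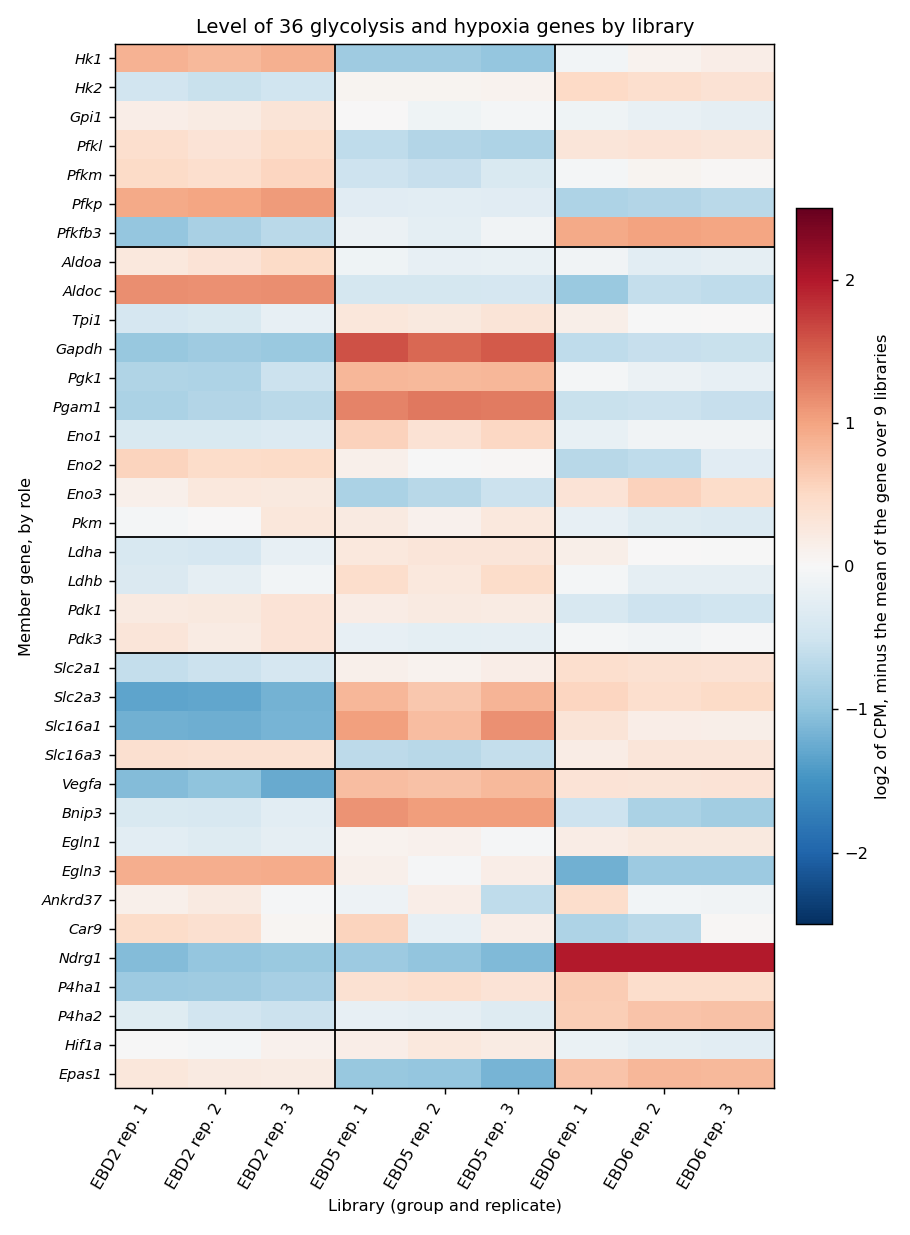
Level of the 36 members in each of the 9 libraries, as log2 CPM minus the mean of that gene over the libraries, with rows ordered by role and groups parted by vertical lines. Libraries of a group look alike, 13 members are highest on average in EBD2, 13 in EBD5 and 10 in EBD6.

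**Figure D2:**
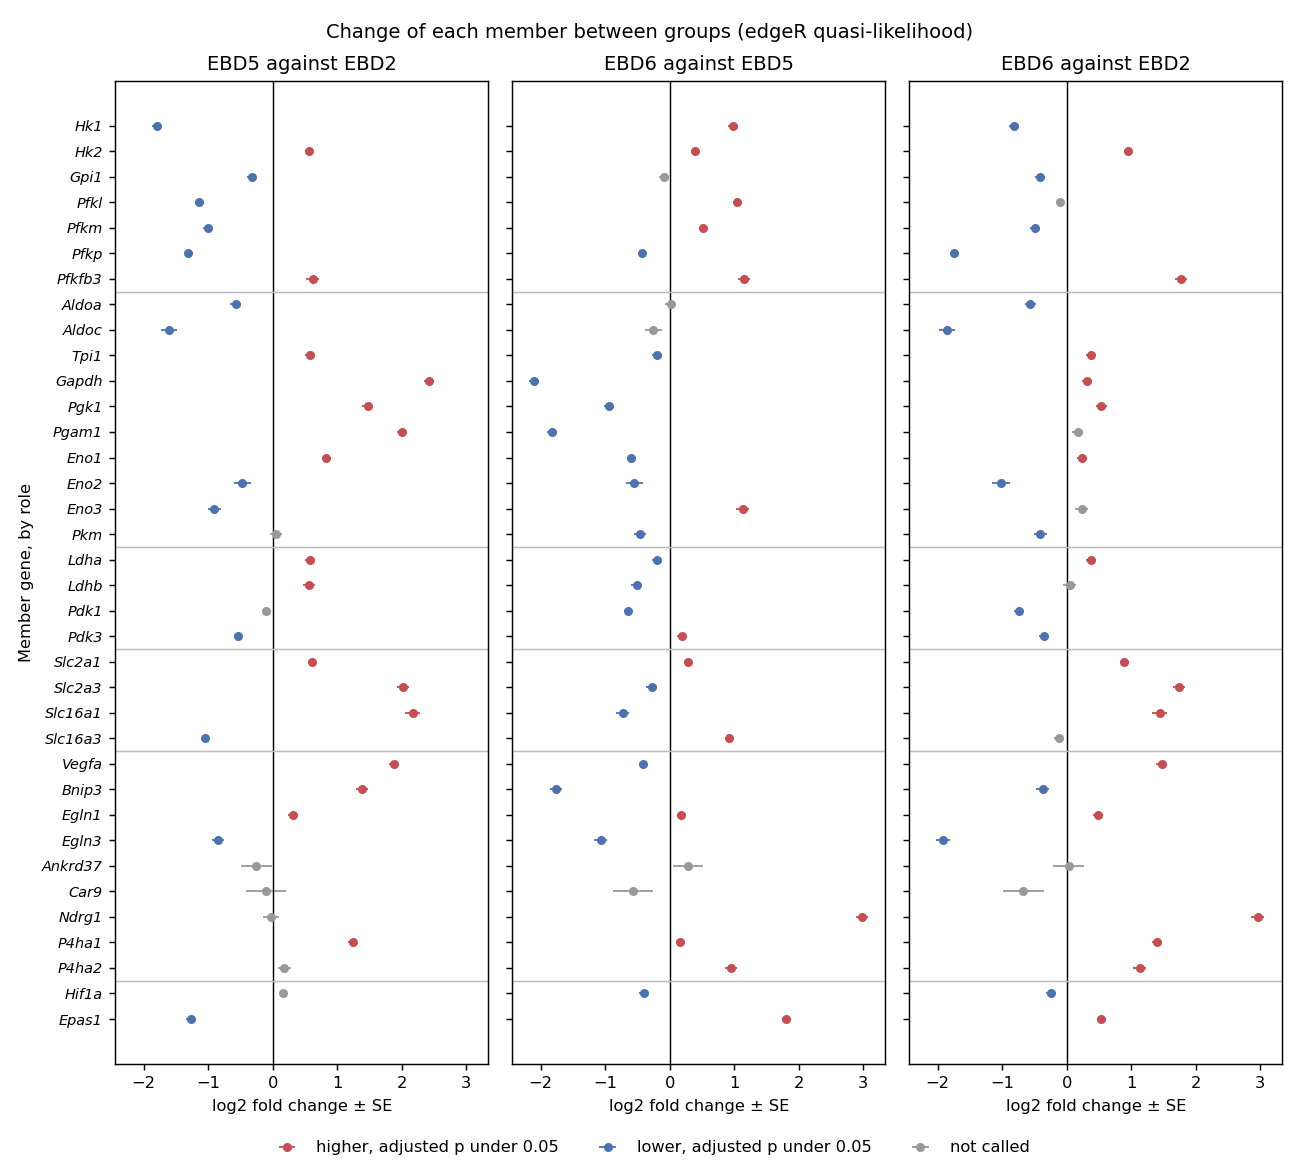
Log2 fold change (points) with its standard error (bars) of each member in the 3 comparisons, coloured by call. Ndrg1 has the largest rise in EBD6 against EBD5 and against EBD2, and Gapdh the largest rise in EBD5 against EBD2 and the largest fall in EBD6 against EBD5.

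Of the 4 sugar and lactate transporters 3 were higher and 1 lower in EBD5 than EBD2, with a median log2 fold change of 1.31. Of all genes 34.9% were higher and 35.1% lower in that comparison. Slc2a3 (GLUT3, a high-affinity glucose transporter; ENSMUSG00000003153, chr6:122727809-122801640, minus strand, build mm10) stood at 375, 378 and 409 CPM in EBD2, 1658, 1491 and 1691 CPM in EBD5 and 1354, 1247 and 1304 CPM in EBD6. All EBD5 and EBD6 libraries lay above all EBD2 libraries, and EBD5 lay above EBD6. Slc2a3 was 4.06-fold higher in EBD5 than in EBD2 (log2 fold change 2.02 ± 0.091, adjusted p = 1.42e-08) and 3.35-fold higher in EBD6 than in EBD2 (log2 fold change 1.74 ± 0.095, adjusted p = 5.63e-08). Its fall from EBD5 to EBD6 was small (log2 fold change -0.28 ± 0.084, adjusted p = 0.0117), and the call was lost without EBD5 replicate 3 (adjusted p = 0.0518) and with GC and length bins (0.192).

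Slc16a1 (MCT1, a monocarboxylate transporter; ENSMUSG00000032902, chr3:104638668-104658462, plus strand) had 159, 157 and 163 CPM in EBD2, 752, 627 and 811 CPM in EBD5 and 461, 415 and 409 CPM in EBD6. The groups did not overlap, and EBD5 was highest. The gene was 4.49-fold higher in EBD5 than in EBD2 (log2 fold change 2.17 ± 0.11, adjusted p = 4.03e-08), and the level was then 1.66-fold lower in EBD6 than in EBD5 (log2 fold change -0.73 ± 0.10, adjusted p = 7.49e-05). Slc16a3 (MCT4, known as the lactate exporter of glycolytic cells) went the other way, with 118, 116 and 116 CPM in EBD2, 56.7, 55.4 and 59.1 CPM in EBD5 and 102, 111 and 111 CPM in EBD6. Its EBD5 libraries were the lowest, at 2.07-fold lower in EBD5 than in EBD2 (log2 fold change -1.05 ± 0.067, adjusted p = 1.91e-07), and it was 1.90-fold higher in EBD6 than in EBD5 (log2 fold change 0.92 ± 0.066, adjusted p = 5.1e-07). With GC and length bins removed that rise shrank to 0.24 on the log2 scale.

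Slc2a1 (GLUT1, the ubiquitous glucose transporter) was at 177, 184 and 199.6 CPM in EBD2, 292, 283 and 300.1 CPM in EBD5 and 358, 347 and 343 CPM in EBD6. It was 1.52-fold higher in EBD5 than in EBD2 (log2 fold change 0.61 ± 0.068, adjusted p = 1.31e-05) and 1.85-fold higher in EBD6 than in EBD2 (log2 fold change 0.89 ± 0.072, adjusted p = 1.21e-06), with no overlap between groups. The step from EBD5 to EBD6 was called (log2 fold change 0.28 ± 0.065, adjusted p = 0.00226) but turned with GC and length bins (log2 fold change -0.17, adjusted p = 0.0741).

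Of the 7 members of the upper steps of glycolysis, from hexokinase to phosphofructokinase, 5 were lower and 2 higher in EBD5 than EBD2. Of all genes 35.1% were lower and 34.9% higher. The median log2 fold change of the 7 was -1.01. In the test against a fold of 1.5, 4 of the 7 were lower, beside 16.3% of all genes. The hexokinases Hk1 and Hk2, which trap glucose as glucose 6-phosphate, moved in opposite directions. Hk1 (ENSMUSG00000037012, chr10:62268855-62379908, minus strand) had 134, 128 and 136 CPM in EBD2, 39.4, 39.8 and 37.6 CPM in EBD5 and 69.5, 78.0 and 81.9 CPM in EBD6. Hk2, the inducible hexokinase, had 136, 129 and 134 CPM in EBD2, 197, 198 and 201 CPM in EBD5 and 267, 252 and 244 CPM in EBD6. EBD2 was the highest group for Hk1 and the lowest for Hk2, and neither gene had groups that overlapped. Hk1 was 3.46-fold lower in EBD5 than in EBD2 (log2 fold change -1.79 ± 0.078, adjusted p = 1.1e-08) and then 1.97-fold higher in EBD6 than in EBD5 (log2 fold change 0.98 ± 0.080, adjusted p = 1.28e-06), whereas Hk2 was 1.47-fold higher in EBD5 than in EBD2 (log2 fold change 0.56 ± 0.060, adjusted p = 1.05e-05) and 1.93-fold higher in EBD6 than in EBD2 (log2 fold change 0.95 ± 0.064, adjusted p = 2.88e-07). The further rise of Hk2 from EBD5 to EBD6 (log2 fold change 0.39 ± 0.057, adjusted p = 0.000105) was lost with GC and length bins (log2 fold change 0.038, adjusted p = 0.661). The same bins shrank the rise of Hk1 from EBD5 to EBD6 to 0.44 on the log2 scale (adjusted p = 0.000248).

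All 3 phosphofructokinase genes, whose enzyme makes the committed step, were lower in EBD5 than in EBD2. Pfkp, the platelet-type subunit (ENSMUSG00000021196, chr13:6579768-6648777, minus strand), had 337, 347 and 365 CPM in EBD2, 144, 146 and 143 CPM in EBD5 and 103, 106 and 110.2 CPM in EBD6. Its groups fell in the order EBD2, EBD5, EBD6 without overlap, at 2.47-fold lower in EBD5 than in EBD2 (log2 fold change -1.31 ± 0.058, adjusted p = 1.37e-08) and 3.34-fold lower in EBD6 than in EBD2 (log2 fold change -1.74 ± 0.065, adjusted p = 3.71e-09). Pfkp shares 748 exonic bases with Pitrm1 on the other strand, and no source used here gives the strand setting of the counting. Pfkl, the liver-type subunit, had 222, 210.2 and 229.6 CPM in EBD2, 107, 101 and 97.1 CPM in EBD5 and 205, 209.8 and 205 CPM in EBD6. Pfkm, the muscle-type subunit, had 141, 136 and 148 CPM in EBD2, 70.2, 67.8 and 77.2 CPM in EBD5 and 97.6, 106 and 103 CPM in EBD6. Both were lowest in EBD5, at 2.22-fold lower in EBD5 than in EBD2 (log2 fold change -1.15 ± 0.062, adjusted p = 5.56e-08) for Pfkl and 2.01-fold lower in EBD5 than in EBD2 (log2 fold change -1.01 ± 0.071, adjusted p = 4.18e-07) for Pfkm. In EBD6 Pfkl was not told apart from EBD2 (log2 fold change -0.11 ± 0.064, adjusted p = 0.159), and Pfkm was lower (log2 fold change -0.49 ± 0.074, adjusted p = 0.000144). With GC and length bins Pfkl too was called lower in EBD6 than EBD2 (log2 fold change -0.21, adjusted p = 0.0325). The rise of Pfkm from EBD5 to EBD6 (log2 fold change 0.52 ± 0.072, adjusted p = 6.66e-05) was lost with GC and length bins (log2 fold change 0.055, adjusted p = 0.524).

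Pfkfb3, which makes the phosphofructokinase activator fructose 2,6-bisphosphate, rose at each step, with 17.9, 20.1 and 22.1 CPM in EBD2, 31.7, 29.6 and 33.1 CPM in EBD5 and 67.5, 70.8 and 69.4 CPM in EBD6. The groups did not overlap, and the gene was 3.41-fold higher in EBD6 than in EBD2 (log2 fold change 1.77 ± 0.10, adjusted p = 6.29e-08) and 2.22-fold higher in EBD6 than in EBD5 (log2 fold change 1.15 ± 0.086, adjusted p = 6.68e-07). Gpi1, the isomerase between hexokinase and phosphofructokinase, ranged from 356 to 400 CPM in EBD2, from 294 to 319 in EBD5 and from 273 to 295 in EBD6. It was 1.25-fold lower in EBD5 than in EBD2 (log2 fold change -0.33 ± 0.070, adjusted p = 0.00153). However, 1 pseudogene similar to Gpi1 took 21.5% to 24.1% of their joint counts in EBD5 and at most 3.70% in the other groups. With those counts added to Gpi1 the log2 fold change was 0.015 (adjusted p = 0.859), and with GC and length bins it was -0.19 (adjusted p = 0.0645).

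Of the 10 members of the lower steps 5 were higher and 4 lower in EBD5 than EBD2, beside 34.9% and 35.1% of all genes. Tpi1, Gapdh, Pgk1, Pgam1 and Eno1, all enzymes from the triose phosphates onward, were highest in EBD5. Gapdh (the glyceraldehyde phosphate dehydrogenase, often used as a reference gene; ENSMUSG00000057666, chr6:125161715-125166467, minus strand) had 173, 179.9 and 175 CPM in EBD2, 1002, 897 and 959 CPM in EBD5 and 214, 222 and 225 CPM in EBD6. Pgam1, a phosphoglycerate mutase, had 24.3, 25.2 and 26.1 CPM in EBD2, 99.2, 105 and 103 CPM in EBD5 and 28.5, 29.0 and 28.1 CPM in EBD6. Pgk1, the kinase that makes the first ATP of the payoff phase, had 46.5, 45.7 and 54.4 CPM in EBD2, 140.1, 138 and 139 CPM in EBD5 and 75.4, 70.7 and 68.0 CPM in EBD6. In all 3 genes every EBD5 library was above every other library. Gapdh was 5.35-fold higher in EBD5 than in EBD2 (log2 fold change 2.42 ± 0.078, adjusted p = 1.44e-09) and 4.29-fold lower in EBD6 than in EBD5 (log2 fold change -2.10 ± 0.076, adjusted p = 8.67e-09). Pgam1 was 3.999-fold higher in EBD5 than in EBD2 (log2 fold change 1.9996 ± 0.076, adjusted p = 4.42e-09) and 3.55-fold lower in EBD6 than in EBD5 (log2 fold change -1.83 ± 0.073, adjusted p = 1.31e-08), and ended near its EBD2 level (log2 fold change 0.17 ± 0.086, adjusted p = 0.095). Pgk1 was 2.77-fold higher in EBD5 than in EBD2 (log2 fold change 1.47 ± 0.079, adjusted p = 5.45e-08) and remained 1.45-fold higher in EBD6 than in EBD2 (log2 fold change 0.53 ± 0.085, adjusted p = 0.000222).

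Many processed pseudogenes copy Gapdh, and reads can be split among them. Sequence matching found 163 pseudogenes and 4 other genes like Gapdh, and these held 15.2% to 15.6% of the joint counts in EBD2, 2.24% to 2.45% in EBD5 and 13.2% to 17.7% in EBD6. Over every alternative tried, including their addition to Gapdh, the log2 fold change in EBD5 against EBD2 stayed between 2.21 and 2.54. The small difference between EBD6 and EBD2 (log2 fold change 0.32 ± 0.080, adjusted p = 0.00452) was lost with GC and length bins (log2 fold change 0.10, adjusted p = 0.243). Over these libraries Gapdh ranged from 173 to 1002 CPM.

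Eno1, the main enolase, had 174, 176 and 180.0 CPM in EBD2, 339, 292 and 329 CPM in EBD5 and 202, 216 and 216 CPM in EBD6. It was 1.78-fold higher in EBD5 than in EBD2 (log2 fold change 0.83 ± 0.076, adjusted p = 2.9e-06) and then 1.51-fold lower in EBD6 than in EBD5 (log2 fold change -0.59 ± 0.074, adjusted p = 3.08e-05), a fall that grew to -1.27 on the log2 scale with GC and length bins. Its small excess in EBD6 over EBD2 (log2 fold change 0.24 ± 0.081, adjusted p = 0.023) was lost without EBD2 replicate 3 (adjusted p = 0.0633) and turned with GC and length bins (log2 fold change -0.057, adjusted p = 0.557). Tpi1, the triose isomerase, ranged from 185 to 214 CPM in EBD2, from 292 to 308 in EBD5 and from 245 to 275 in EBD6. It was 1.49-fold higher in EBD5 than in EBD2 (log2 fold change 0.57 ± 0.077, adjusted p = 5.57e-05), while its difference between EBD6 and EBD5 (log2 fold change -0.19 ± 0.075, adjusted p = 0.0376) was lost in several alternatives, such as leaving out EBD5 replicate 1 (adjusted p = 0.0747) or replicate 3 (0.0998). The excess in EBD6 over EBD2 (log2 fold change 0.38 ± 0.082, adjusted p = 0.00195) was lost with GC and length bins (adjusted p = 0.0636).

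Aldoc, Eno2, Eno3 and Aldoa, also members of the lower steps, were lower in EBD5 than EBD2. Aldoc, the brain-type aldolase, had 35.9, 35.2 and 35.9 CPM in EBD2, 11.7, 11.8 and 11.9 CPM in EBD5 and 8.37, 10.6 and 10.3 CPM in EBD6. Eno2, the neuronal enolase, had 19.7, 18.3 and 18.5 CPM in EBD2, 14.5, 13.2 and 13.5 CPM in EBD5 and 8.20, 8.55 and 10.9 CPM in EBD6. Eno3, the muscle enolase, had 35.5, 38.8 and 38.6 CPM in EBD2, 18.9, 20.2 and 22.3 CPM in EBD5 and 41.2, 48.3 and 44.8 CPM in EBD6. EBD2 libraries were the highest for Aldoc and Eno2, and EBD5 libraries the lowest for Eno3. Aldoc was 3.05-fold lower in EBD5 than in EBD2 (log2 fold change -1.61 ± 0.12, adjusted p = 5.98e-07) and 3.64-fold lower in EBD6 than in EBD2 (log2 fold change -1.86 ± 0.12, adjusted p = 2.74e-07). Eno2 was 2.02-fold lower in EBD6 than in EBD2 (log2 fold change -1.02 ± 0.14, adjusted p = 6.58e-05), and its fall from EBD2 to EBD5 (log2 fold change -0.47 ± 0.13, adjusted p = 0.0074) was not called by DESeq2 (adjusted p = 0.0874). Eno3 was 1.87-fold lower in EBD5 than in EBD2 (log2 fold change -0.90 ± 0.10, adjusted p = 1.63e-05) and 2.19-fold higher in EBD6 than in EBD5 (log2 fold change 1.13 ± 0.10, adjusted p = 2.08e-06).

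Aldoa, the ubiquitous aldolase, had 594, 625 and 692 CPM in EBD2, 458, 430.4 and 434 CPM in EBD5 and 466, 410.1 and 421 CPM in EBD6. Its EBD2 libraries were the highest, and EBD5 and EBD6 overlapped. It was 1.49-fold lower in EBD5 than in EBD2 (log2 fold change -0.58 ± 0.079, adjusted p = 6.01e-05), a call lost with GC and length bins (adjusted p = 0.109), and EBD6 against EBD5 went from no call (log2 fold change 0.013 ± 0.080, adjusted p = 0.893) to a fall with those bins (log2 fold change -0.60, adjusted p = 0.000421). Pkm, the pyruvate kinase of the last ATP-making step, ranged from 696 to 878 CPM in EBD2, from 780 to 865 in EBD5 and from 570 to 624 in EBD6. It was not called between EBD5 and EBD2 (log2 fold change 0.049 ± 0.10, adjusted p = 0.666), except with GC and length bins (log2 fold change 0.42, adjusted p = 0.0124), but was 1.37-fold lower in EBD6 than in EBD5 (log2 fold change -0.46 ± 0.10, adjusted p = 0.00137). That fall grew to -1.12 on the log2 scale with GC and length bins. Pkm shares 767 exonic bases with Gm49759 on the same strand, which had 5151 counts over all libraries against 44011 for Pkm.

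Both lactate dehydrogenase genes, whose enzyme turns pyruvate into lactate and back, were higher in EBD5 than EBD2. Ldha, the muscle-type subunit, had 217, 212 and 248 CPM in EBD2, 339, 348 and 353 CPM in EBD5 and 313, 287 and 284 CPM in EBD6. Ldhb, the heart-type subunit, had 134, 148 and 165 CPM in EBD2, 235, 207 and 238 CPM in EBD5 and 168, 148 and 148 CPM in EBD6. Every EBD5 library exceeded every EBD2 library in both genes, and Ldhb overlapped between EBD6 and EBD2. Ldha was 1.49-fold higher in EBD5 than in EBD2 (log2 fold change 0.57 ± 0.077, adjusted p = 5.19e-05) and Ldhb was 1.47-fold higher in EBD5 than in EBD2 (log2 fold change 0.56 ± 0.090, adjusted p = 0.00021). Ldhb then was 1.43-fold lower in EBD6 than in EBD5 (log2 fold change -0.51 ± 0.089, adjusted p = 0.000343). For Ldha the difference between EBD6 and EBD5 (log2 fold change -0.20 ± 0.075, adjusted p = 0.0325) was lost without EBD5 replicate 2 (adjusted p = 0.051) or 3 (0.084), and its excess in EBD6 over EBD2 (log2 fold change 0.37 ± 0.082, adjusted p = 0.00202) with GC and length bins (adjusted p = 0.144).

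Pdk1 and Pdk3 phosphorylate pyruvate dehydrogenase and so keep pyruvate from the mitochondrial citrate cycle. Pdk1 had 281, 284 and 306 CPM in EBD2, 273, 279 and 276 CPM in EBD5 and 181, 169 and 170.5 CPM in EBD6. Pdk3 had 65.3, 61.3 and 67.1 CPM in EBD2, 45.9, 44.9 and 45.5 CPM in EBD5 and 51.3, 49.6 and 51.6 CPM in EBD6. Pdk1 was not called between EBD2 and EBD5 (log2 fold change -0.10 ± 0.062, adjusted p = 0.153). With GC and length bins it was called lower in EBD5 than EBD2 (log2 fold change -0.16, adjusted p = 0.0411). Pdk1 was lower in all EBD6 libraries, at 1.56-fold lower in EBD6 than in EBD5 (log2 fold change -0.64 ± 0.064, adjusted p = 5.2e-06). Pdk3 was 1.45-fold lower in EBD5 than in EBD2 (log2 fold change -0.53 ± 0.071, adjusted p = 5.17e-05), and its small rise from EBD5 to EBD6 (log2 fold change 0.18 ± 0.071, adjusted p = 0.0392) was lost in many alternatives, such as leaving out any EBD5 replicate (adjusted p = 0.0792 to 0.119).

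Among the 9 hypoxia targets 4 were higher and 1 lower in EBD5 than EBD2, beside 34.9% and 35.1% of all genes. In EBD6 against EBD5, 4 were higher and 3 lower (36.9% and 33.3% of all genes). In EBD6 against EBD2, 5 were higher and 2 lower (33.8% and 32.3% of all genes). Their median log2 fold changes in these comparisons were 0.18, 0.17 and 0.49. The targets that rose did so at different points. Vegfa, the main vascular growth factor, had 34.4, 35.9 and 30.2 CPM in EBD2, 123, 120.5 and 128 CPM in EBD5 and 92.3, 90.9 and 92.3 CPM in EBD6. P4ha1, the alpha subunit of collagen prolyl hydroxylase (ENSMUSG00000019916, chr10:59323296-59373304, plus strand), had 71.4, 72.7 and 75.4 CPM in EBD2, 175, 179.9 and 171 CPM in EBD5 and 210.4, 182 and 182 CPM in EBD6. Both were far above EBD2 in every EBD5 and EBD6 library. Vegfa was 3.69-fold higher in EBD5 than in EBD2 (log2 fold change 1.88 ± 0.078, adjusted p = 7.52e-09) and 2.77-fold higher in EBD6 than in EBD2 (log2 fold change 1.47 ± 0.081, adjusted p = 6.37e-08). P4ha1 was 2.36-fold higher in EBD5 than in EBD2 (log2 fold change 1.24 ± 0.075, adjusted p = 1.36e-07) and 2.65-fold higher in EBD6 than in EBD2 (log2 fold change 1.40 ± 0.079, adjusted p = 7.02e-08), and its step from EBD5 to EBD6 (log2 fold change 0.17 ± 0.068, adjusted p = 0.0471) was lost in most alternatives, for example without EBD6 replicate 1 (adjusted p = 0.226).

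Ndrg1 (ENSMUSG00000005125, chr15:66929318-66969640, minus strand), a stress-responsive gene that is induced by low oxygen in many cell types, had 9.23, 10.03 and 10.3 CPM in EBD2, 10.45, 9.91 and 9.05 CPM in EBD5 and 77.0, 76.8 and 77.3 CPM in EBD6. EBD2 and EBD5 libraries overlapped (log2 fold change -0.028 ± 0.12, adjusted p = 0.905), and all EBD6 libraries stood far above both. The gene was 7.93-fold higher in EBD6 than in EBD5 (log2 fold change 2.99 ± 0.094, adjusted p = 4.44e-09) and 7.77-fold higher in EBD6 than in EBD2 (log2 fold change 2.96 ± 0.10, adjusted p = 1.78e-09), the largest called rise among the members in each of those comparisons. P4ha2, another alpha subunit of collagen prolyl hydroxylase, likewise was highest in EBD6, with 21.7, 19.4 and 18.5 CPM in EBD2, 23.3, 22.9 and 21.6 CPM in EBD5 and 41.3, 44.1 and 44.9 CPM in EBD6. It was 1.93-fold higher in EBD6 than in EBD5 (log2 fold change 0.95 ± 0.093, adjusted p = 4.69e-06), and its EBD5 and EBD2 levels were not told apart (log2 fold change 0.18 ± 0.10, adjusted p = 0.15). With GC and length bins P4ha2 was called higher in EBD5 than EBD2 (log2 fold change 0.32, adjusted p = 0.00758). The same bins shrank its rise from EBD5 to EBD6 to 0.59 on the log2 scale.

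Bnip3 (ENSMUSG00000078566, chr7:138890836-138909519, minus strand), a mitochondrial protein of mitophagy, had the opposite shape, with 45.5, 45.1 and 49.5 CPM in EBD2, 129, 122 and 123 CPM in EBD5 and 41.5, 34.5 and 32.3 CPM in EBD6. Only its EBD5 libraries were high, at 2.62-fold higher in EBD5 than in EBD2 (log2 fold change 1.39 ± 0.091, adjusted p = 2.4e-07) and 3.396-fold lower in EBD6 than in EBD5 (log2 fold change -1.76 ± 0.092, adjusted p = 6.44e-08). With GC and length bins the fall to EBD6 shrank to -1.16 on the log2 scale. The 4 pseudogenes like Bnip3 held 8.71% to 11.5% of their joint counts in EBD5 and at most 0.525% elsewhere. An antisense gene overlaps 504 exonic bases of Bnip3. Bnip3 in EBD6 was below EBD2 (log2 fold change -0.37 ± 0.10, adjusted p = 0.00768), a call lost without EBD2 replicate 3 (adjusted p = 0.055).

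The oxygen sensors Egln1 and Egln3 diverged. Egln3 (ENSMUSG00000035105, chr12:54178981-54203860, minus strand), an inducible HIF hydroxylase, had 79.5, 79.9 and 80.2 CPM in EBD2, 46.2, 41.7 and 47.4 CPM in EBD5 and 18.4, 22.6 and 22.5 CPM in EBD6. Egln1, the main HIF hydroxylase, had 48.5, 46.7 and 49.8 CPM in EBD2, 62.5, 62.7 and 57.2 CPM in EBD5 and 66.5, 69.6 and 69.0 CPM in EBD6. Egln3 fell at both steps with no overlap, at 1.80-fold lower in EBD5 than in EBD2 (log2 fold change -0.84 ± 0.091, adjusted p = 1.05e-05) and 2.10-fold lower in EBD6 than in EBD5 (log2 fold change -1.07 ± 0.10, adjusted p = 3.85e-06). Egln1 was 1.40-fold higher in EBD6 than in EBD2 (log2 fold change 0.49 ± 0.079, adjusted p = 0.000243). The step of Egln1 from EBD5 to EBD6 (log2 fold change 0.18 ± 0.072, adjusted p = 0.0446) was lost in many alternatives, such as DESeq2 (adjusted p = 0.311), and turned with GC and length bins (log2 fold change -0.45, adjusted p = 0.000228).

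Ankrd37 and Car9, both strongly induced by HIF in other settings, stayed low and were called in none of the 3 comparisons. Ankrd37 lay between 5.20 and 10.9 CPM in all libraries, and Car9, a membrane carbonic anhydrase, between 1.60 and 4.03 CPM. At these depths Car9 had as few as 9 counts in a library, so its fold changes rest on few reads. On the other strand Car9 shares 214 exonic bases with Gm12454, which had 126 counts over all libraries against 175 for Car9. Ankrd37 shares 57 with Ufsp2 (3765 counts against 511) and 349 with Lrp2bp (94 counts), both on the other strand. Without EBD6 replicate 3 Car9 passed the threshold in EBD6 against EBD2 (log2 fold change -0.98, adjusted p = 0.0222) and against EBD5 (-0.88, 0.0314). With GC and length bins it also passed in both, with log2 fold change -0.84, adjusted p = 0.0296, and log2 fold change -1.05, adjusted p = 0.0106. Against EBD2 it passed further with 9 separate libraries (adjusted p = 0.0452) and with protein-coding genes only (adjusted p = 0.0491).

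**Figure D3:**
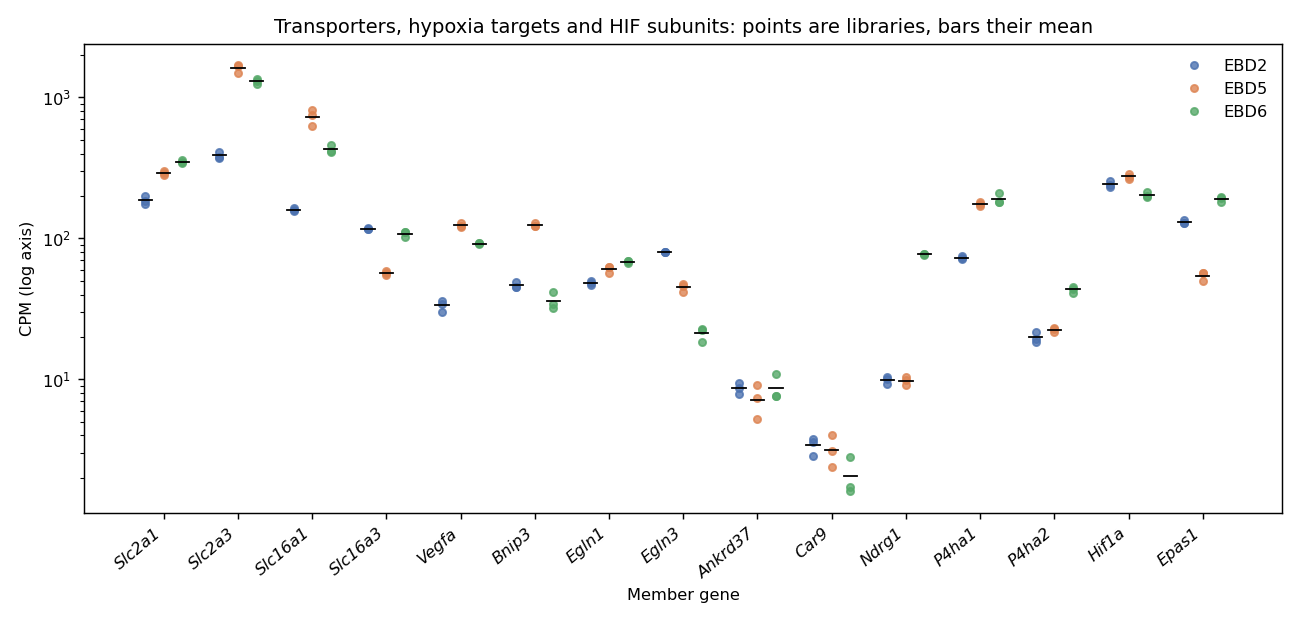
CPM on a log axis of transporters, hypoxia targets and HIF alpha subunits, with points for libraries and bars for their mean in each group. Vegfa, P4ha1, Slc2a3 and Slc16a1 stand above EBD2 in both EBD5 and EBD6, Bnip3 in EBD5 and Ndrg1 and P4ha2 in EBD6.

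The alpha subunits differed in their pattern of CPM. Hif1a had 238, 231 and 255 CPM in EBD2, 266, 286 and 275 CPM in EBD5 and 213, 201 and 198 CPM in EBD6. Epas1 (HIF-2 alpha; ENSMUSG00000024140, chr17:86753700-86833410, plus strand), known for roles in vascular and blood development, had 135, 129 and 128 CPM in EBD2, 57.0, 56.7 and 49.7 CPM in EBD5 and 182, 197 and 193 CPM in EBD6. In CPM Hif1a was highest in EBD5 and Epas1 lowest there, and neither had groups that overlapped. Epas1 was 2.42-fold lower in EBD5 than in EBD2 (log2 fold change -1.27 ± 0.073, adjusted p = 8.31e-08), 3.50-fold higher in EBD6 than in EBD5 (log2 fold change 1.81 ± 0.070, adjusted p = 1.19e-08) and 1.45-fold higher in EBD6 than in EBD2 (log2 fold change 0.53 ± 0.071, adjusted p = 5.46e-05). The higher Hif1a in EBD5 than EBD2 was just short of the threshold (log2 fold change 0.16 ± 0.066, adjusted p = 0.0534) and passed it with 9 separate libraries (adjusted p = 0.0063) and in several other alternatives, while with GC and length bins its sign turned (log2 fold change -0.067, adjusted p = 0.367). Hif1a was 1.32-fold lower in EBD6 than in EBD5 (log2 fold change -0.41 ± 0.067, adjusted p = 0.000235), which GC and length bins ended (log2 fold change -0.077, adjusted p = 0.307).

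The 4 endothelial markers Cdh5, Kdr, Pecam1 and Tie1 summed to 152 to 158 CPM in EBD2, 63.6 to 66.4 CPM in EBD5 and 134 to 143 CPM in EBD6, a sum that was mostly Pecam1, at 150.2 to 156 CPM, 60.3 to 63.1 CPM and 79.8 to 83.0 CPM. Cdh5 instead went from at most 0.178 CPM in EBD2 to 1.65 to 2.89 CPM in EBD5 and 39.7 to 50.7 CPM in EBD6. Of the 3 endothelial markers tested, 2 were higher and 1 lower in EBD5 than EBD2, and 3 were higher in EBD6 than EBD5. The neuroectoderm markers Sox1, Pax6, Tubb3 and Six3 summed to 144 to 152, 67.2 to 75.1 and 168 to 174 CPM. Six3 instead rose at each step, with 0.171 to 0.822 CPM in EBD2, 2.90 to 4.24 CPM in EBD5 and 28.9 to 31.6 CPM in EBD6. The other 3 were lower in EBD5 than EBD2 and were not called between EBD6 and EBD2. The trophoblast markers Tpbpa, Prl3d1, Cdx2 and Elf5 summed to 0.164 CPM or less in EBD2, where Prl3d1, Cdx2 and Elf5 had no counts, to 1.35 CPM or less in EBD5 and to 21.9 to 26.9 CPM in EBD6. The part of these cell types in the changes of the members was not tested.

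Across genes, levels were compared per kilobase of exon. Aldoa (222 CPM per kb) and Pkm (158) were the most abundant members in EBD2. Per kb of exon in EBD5 Gapdh (226) and Slc2a3 (218) took the lead, and in EBD6 Slc2a3 (179.8) and Aldoa (150.1). The order depends on the length used. Per kb of the longest transcript Aldoa (416) and Pkm (324) again led in EBD2, but EBD5 was led by Pkm (335), followed by Gapdh (284), Aldoa (279) and Slc2a3 (253), and EBD6 by Aldoa (282) and Pkm (244), followed by Slc2a3 (208). Per kb of exon Car9 was the lowest member in each group.

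Within families of isozymes or paralogs, shares of the summed level per kb of exon shifted. Hk2 held 59.0, 59.0 and 58.5% in EBD2, 87.7, 87.7 and 88.4% in EBD5 and 84.6, 82.2 and 81.0% in EBD6 of the hexokinase pair. Slc16a1 held 61.8, 61.9 and 62.8% in EBD2, 94.1, 93.2 and 94.3% in EBD5 and 84.5, 81.8 and 81.6% in EBD6 of the monocarboxylate transporter pair. Eno1 held 56.8, 55.5 and 56.2% in EBD2, 81.9, 79.1 and 79.5% in EBD5 and 59.6, 57.6 and 58.9% in EBD6 of the 3 enolases. EBD2 was the lowest group for Hk2 and Slc16a1, and EBD5 the highest group for all 3 genes. Egln1 rose in share at each step, with 31.1, 30.2 and 31.5% in EBD2, 50.1, 52.7 and 47.2% in EBD5 and 72.8, 69.5 and 69.4% in EBD6 of the Egln pair. Hif1a held 62.5, 62.9 and 65.4% in EBD2, 81.5, 82.7 and 84.0% in EBD5 and 52.7, 49.2 and 49.3% in EBD6 of the alpha subunit pair, so that Epas1 led narrowly in 2 of the 3 EBD6 libraries, whereas with the longest transcript as length Hif1a led in every library (mean 56.1% in EBD6). Slc2a1 held 49.3, 50.1 and 50.2% in EBD2, 26.7, 28.2 and 26.8% in EBD5 and 35.4, 36.5 and 35.2% in EBD6 of the glucose transporter pair, near even in EBD2 and behind Slc2a3 after that. Pfkp fell to between 11.1% and 11.8% of the phosphofructokinases in EBD6, from between 25.02% and 26.5% in EBD2.

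Other families shifted less. Ldha held 43.3, 40.4 and 41.6% in EBD2, 40.6, 44.3 and 41.2% in EBD5 and 46.9, 47.8 and 47.6% in EBD6 of the lactate dehydrogenase pair, with EBD2 and EBD5 overlapping. Aldoa held at least 94.9% of its pair in every library, P4ha1 at least 83.3% and Pdk1 between 52.1% and 67.2%. An exact permutation test over samples (two-sided) cannot go below p = 0.2 for 3 samples against 2, or 0.333 for 2 against 2. Over the 33 tests of shares, Benjamini-Hochberg adjusted values ran from 0.33 to 1, so no share difference could pass a threshold in this design. The leading isozyme was the same in every library for 7 of 11 families. With the longest transcript as length it was the same for 8, with Hk1 ahead of Hk2 in EBD2 and Ldha ahead of Ldhb in every group.

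**Figure D4:**
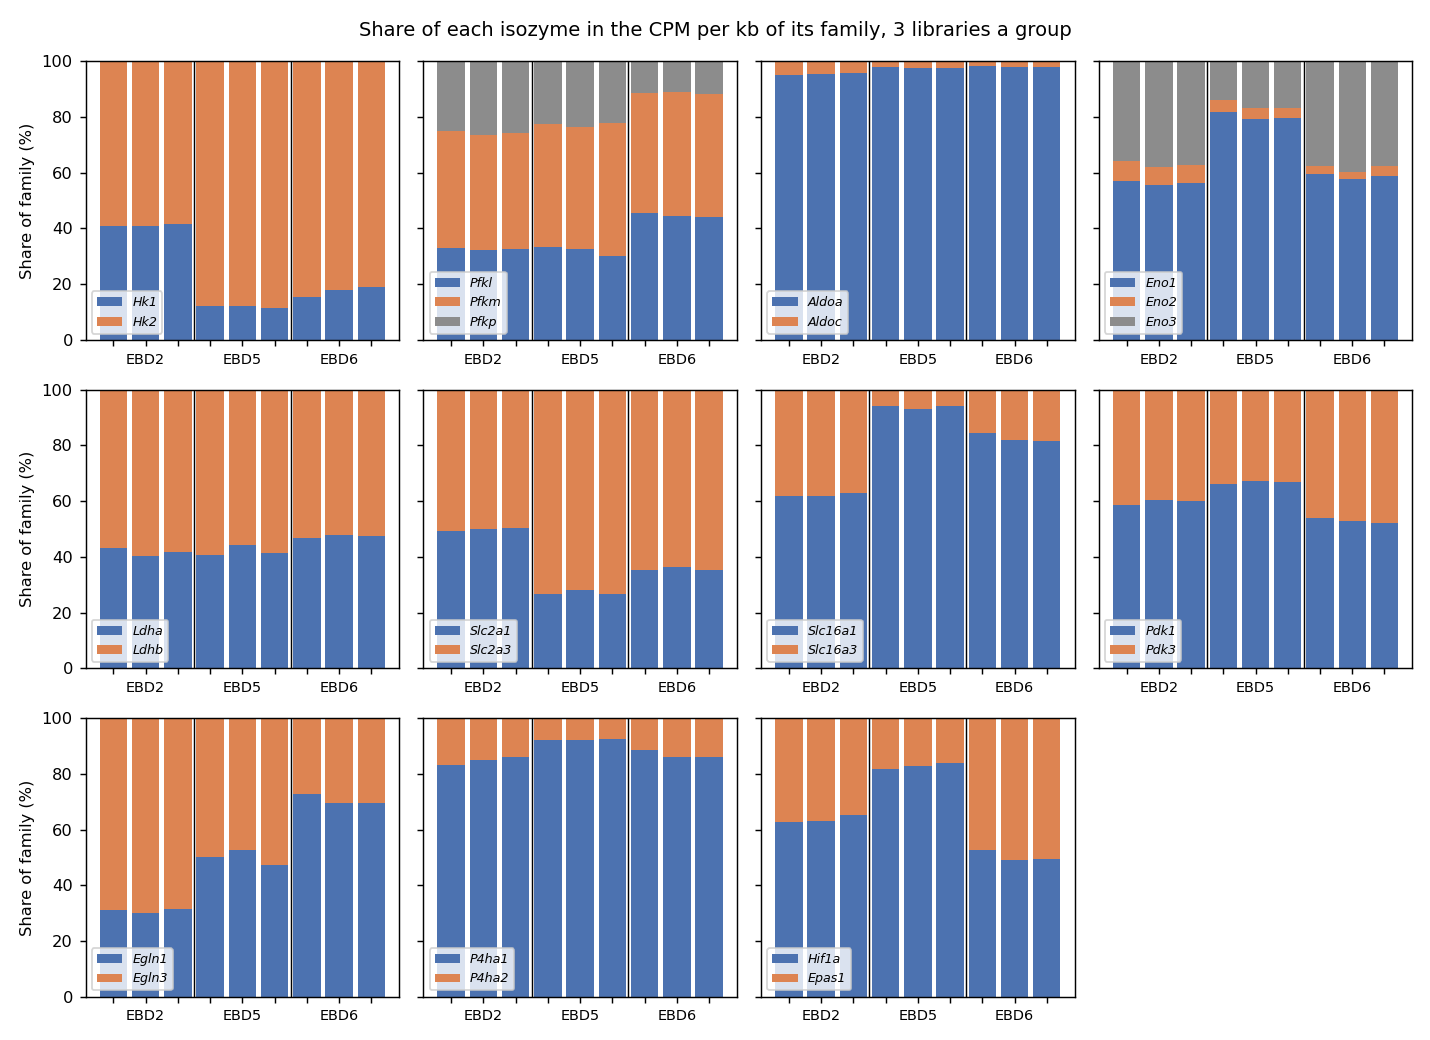
Share of each isozyme in the summed CPM per kb of exon of its family, in percent, with a bar for each library in the order of replicates 1 to 3 of EBD2, EBD5 and EBD6. Hk2 goes from between 58.5% and 59.0% in EBD2 to between 81.0% and 88.4% in the later groups, and Egln1 overtakes Egln3.

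Genes of the surrounding pathway, taken from lists of textbook members, moved unevenly. Of 12 tested isozymes and regulators of glycolysis outside the members, 5 were higher and 3 lower in EBD5 than EBD2, beside 34.9% and 35.1% of all genes. Hkdc1, a hexokinase paralog, had 0.684, 0.164 and 0.178 CPM in EBD2, 59.8, 66.6 and 61.1 CPM in EBD5 and 106, 117 and 119.9 CPM in EBD6. Slc2a2 (GLUT2), the liver-type glucose transporter, had 2 counts in EBD2 and was 53.2-fold higher in EBD5, with a 95% counting interval from 14.35 to 445, and 127-fold higher in EBD6 (34.9 to 1050). These intervals cover counting error only. Both genes were near absent in EBD2, as were the visceral endoderm markers whose sums are given above, and a part of that cell type in them was not tested. Adpgk, Pfkfb2 and Bpgm also were higher in EBD5 than EBD2, at log2 fold changes of 0.21, 0.80 and 0.88.

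The lists of routes that leave glycolysis differed in EBD5 against EBD2, where 34.9% of all genes tested were higher and 35.1% lower. In the pentose phosphate pathway, which makes NADPH and ribose, 5 of 7 genes were lower and 1 higher than in EBD2. Tkt, the transketolase, had 385, 387 and 444 CPM in EBD2, 229, 233 and 229 CPM in EBD5 and 294, 279 and 270.1 CPM in EBD6, at 1.82-fold lower in EBD5 than in EBD2 (log2 fold change -0.86 ± 0.071, adjusted p = 1.31e-06). Of 11 genes for the entry of pyruvate into mitochondria, 6 were lower and 1 higher. The test against a fold of 1.5 was passed by 1 of the 11, beside 34.7% of all genes. Pdk2, a further pyruvate dehydrogenase kinase and so an inhibitor of that entry, was 2.02-fold lower in EBD5 than in EBD2 (log2 fold change -1.02 ± 0.16, adjusted p = 0.00022). Of 7 glycogen genes 5 were higher and 2 lower, and Gyg, the glycogenin that primes glycogen, had 15.9, 16.0 and 12.3 CPM in EBD2, 55.4, 56.6 and 61.8 CPM in EBD5 and 53.1, 52.5 and 52.6 CPM in EBD6. Gyg was 3.93-fold higher in EBD5 than in EBD2 (log2 fold change 1.98 ± 0.11, adjusted p = 7.97e-08) and 3.63-fold higher in EBD6 than in EBD2 (log2 fold change 1.86 ± 0.12, adjusted p = 1.5e-07).

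Of 10 HIF partners and regulators 2 were higher and 4 lower in EBD5 than EBD2, beside 34.9% and 35.1% of all genes. In EBD6 against EBD2, 4 were higher and 3 lower, beside 33.8% and 32.3% of all genes. Counts near those shares say little about this list in particular. Arnt, the beta subunit, had 214, 219.9 and 227 CPM in EBD2, 133, 134 and 142 CPM in EBD5 and 135, 121 and 122 CPM in EBD6, with no EBD2 library overlapping the others. Vhl, the ligase component that recognises hydroxylated alpha subunits, had 22.0, 23.7 and 24.2 CPM in EBD2, 40.9, 43.9 and 49.5 CPM in EBD5 and 50.4, 55.3 and 52.1 CPM in EBD6. Arnt was 1.74-fold lower in EBD6 than in EBD2 (log2 fold change -0.80 ± 0.070, adjusted p = 2.18e-06) and Vhl 2.23-fold higher in EBD6 than in EBD2 (log2 fold change 1.16 ± 0.10, adjusted p = 2.61e-06). Egln2, the third HIF hydroxylase, was lowest in EBD5 and highest in EBD6, with 58.4, 56.1 and 53.5 CPM in EBD2, 29.0, 27.2 and 27.7 CPM in EBD5 and 70.0, 80.0 and 81.1 CPM in EBD6.

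Further hypoxia targets leaned upward: of 26 tested, 16 were higher and 5 lower in EBD5 than EBD2, 13 and 7 in EBD6 than EBD5, and 18 and 3 in EBD6 than EBD2, with medians of 0.44, 0.19 and 0.56 on the log2 scale. Of all genes 34.9%, 36.9% and 33.8% were called higher, and 35.1%, 33.3% and 32.3% lower. Flt1, a VEGF receptor, had 5.47, 4.93 and 5.69 CPM in EBD2, 36.7, 39.8 and 38.3 CPM in EBD5 and 73.4, 82.7 and 85.1 CPM in EBD6. Loxl2, a lysyl oxidase of the extracellular matrix, had 8.20, 8.06 and 6.94 CPM in EBD2, 66.2, 64.2 and 69.1 CPM in EBD5 and 104, 101 and 107 CPM in EBD6. Both rose at each step without overlap between groups, Flt1 being 7.03-fold higher in EBD5 than in EBD2 (log2 fold change 2.81 ± 0.13, adjusted p = 1.53e-08) and Loxl2 8.51-fold higher in EBD5 than in EBD2 (log2 fold change 3.09 ± 0.10, adjusted p = 1.5e-09). Angptl4, a secreted regulator of lipoprotein lipase, was 4.46-fold lower in EBD5 than in EBD2 (log2 fold change -2.16 ± 0.15, adjusted p = 3.54e-07) and remained 2.28-fold lower in EBD6 than in EBD2 (log2 fold change -1.19 ± 0.14, adjusted p = 2.03e-05), and Mxi1, an antagonist of Myc, was 1.91-fold lower in EBD6 than in EBD2 (log2 fold change -0.93 ± 0.076, adjusted p = 1.32e-06).

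Several features of the EBD5 libraries moved with these results. Nuclear ribosomal RNA took 0.726% to 0.812% of counts in EBD5 and at most 0.0247% in the other groups, mitochondrial ribosomal RNA 0.521% to 0.546% and at most 0.0168%, and processed pseudogenes 1.12% to 1.14% and at most 0.347%. The 36 members took 0.744% to 0.810% of counts in EBD5, 0.574% to 0.614% in EBD2 and 0.699% to 0.719% in EBD6. Without the transporters, hypoxia targets and HIF subunits, the share was 0.435% to 0.469% in EBD5 and 0.416% to 0.454% in EBD2, which overlap. In EBD6 that share was lowest, at 0.378% to 0.387%. A fit on protein-coding genes alone ended 3 member calls, those of Pdk3, Egln1 and P4ha1 in EBD6 against EBD5, and added 3. Whether RNA quality or library composition had a part in the members' changes was not tested beyond these fits.

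**Figure D5:**
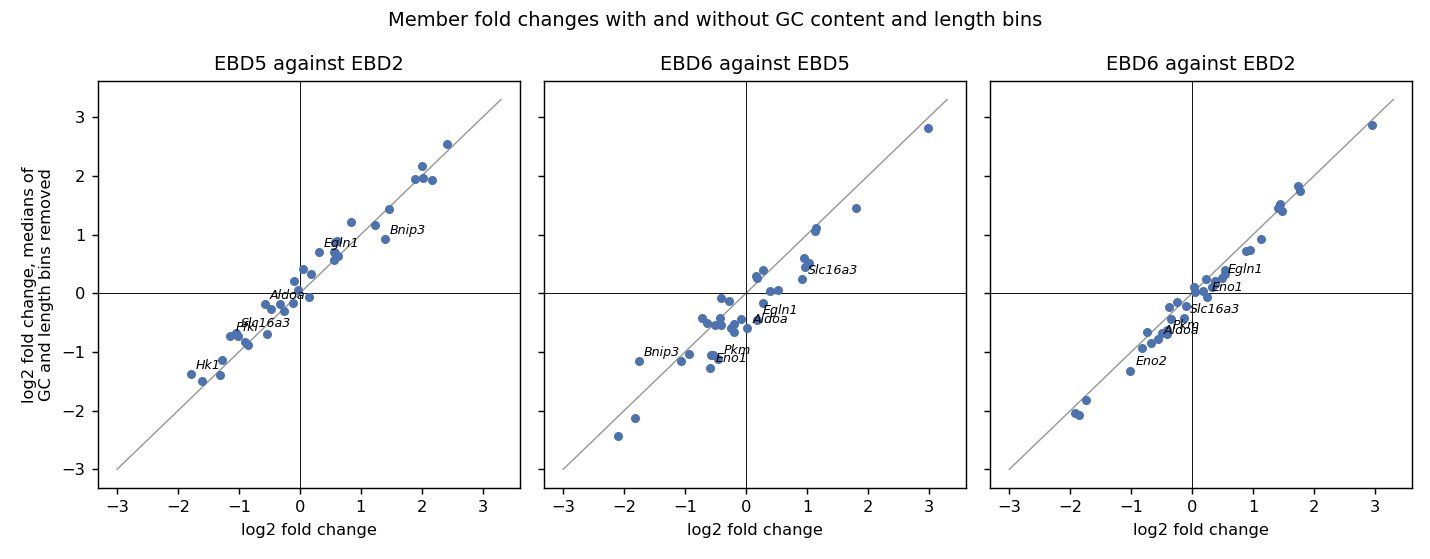
Log2 fold change of the 36 members as measured (horizontal) and after removal of the median of genes in the same bin of GC content and length (vertical), for the 3 comparisons, with the line of equality and the names of the 6 members farthest from it. Large changes stay on the same side of 0, whereas Slc2a1, Egln1 and Aldoa in EBD6 against EBD5 and Eno1 in EBD6 against EBD2 cross it. Hif1a, Car9 and Ndrg1 cross it in EBD5 against EBD2, with no call in either fit.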

How the data were processed

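The values the authors deposited are expected counts per gene (estimates of reads, 90.9% to 94.6% of them whole numbers in a library) with no scaling. Per the submitters' processing notes, the tools were STAR 2.7.10a with RSEM 1.3.30, cutadapt 1.18, DESeq2 1.38.3 and edgeR 3.40.2, and the build was mm10, without a role for any. Neither the annotation release nor the strand setting is given in the sources used here. Per the labels' protocols, poly-A RNA was selected on oligo-dT beads before a KAPA library kit was applied. The EBD6 libraries were also in another table, identical in all 54233 rows, of which 1 names no gene (at most 0.0157% of a library) and was left out.

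Expected counts were rounded, genes were kept by filterByExpr (16168 of 54232), and all groups were fitted together with edgeR 4.0.16 (R 4.3.3; TMM, quasi-likelihood test, Benjamini-Hochberg over all tested genes, calls at 0.05, 4 residual degrees of freedom, biological coefficient of variation 6.72%). The SE is the log2 fold change divided by the square root of F. Symbols, positions, GC content and lengths came from GENCODE M21 (mm10), which named 54165 rows. The symbol Aldoa belongs to several IDs, of which the most abundant was taken. Near-identical libraries were found with chi-square tests of their counts, using genes that reached 20 counts over both libraries (chi-square per gene 0.949 and 1.01, other pairs 1.21 to 4.31) and summed. Copies of members were found with blastn 2.17.0 at 90% identity over at least 300 bases and at least 50% of the copy. GC content and length bins were 10 bins of GC content with 5 of length in each. The edgeR step was tested on simulated data. Alternatives were DESeq2 1.42.0, its size factors in edgeR, limma-voom (limma 3.58.1), other filters, a fold of 1.5, fits on fewer groups or protein-coding genes, bins, separate libraries, the replicate block, and leaving out each library. Adding the counts of copies was chosen after seeing the data. The members, lists and tests were chosen with earlier results of these data known. All members may be named. Those with the 4 largest called rises and falls in a comparison, the HIF subunits and the isozyme families have values in every library, and up to 4 genes per list, comparison and direction are named from other lists.

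Reads carried no molecular identifiers and are not independent molecules, so counting intervals cover counting error only. Some genes of the other lists are not reported here.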

Additional observations from a re-analysis of the deposited data

How the results depend on the processing

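Most member fold changes kept their side of the threshold. Over all alternatives 2228 did so, 106 lost the call (43 of them in the test against a fold of 1.5), 34 gained it and 5 turned with a call on at least one side. These 5 were, with GC content and length bins, Aldoa (-0.60), Slc2a1 (-0.17) and Egln1 (-0.45) in EBD6 against EBD5 and Eno1 (-0.057) in EBD6 against EBD2, and, with the counts of copies added, Gpi1 in EBD5 against EBD2 (0.015), all on the log2 scale. The bins ended 10 further calls and gave 10. Of the 2228, 26 changed sign with no call on either side, namely Aldoa, Ankrd37 and Ndrg1 (22 in all), Ldhb, and in EBD5 against EBD2 Hif1a (-0.067) and Car9 (0.20 with bins). The cause was not tested.

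The test against a fold of 1.5 asks for more and called fewer. In EBD5 against EBD2 it called 9 members higher, and 2972 higher and 2634 lower of all genes. In EBD6 against EBD5 it called 8 members higher and 5 lower, and 2844 and 2473 of all genes. In EBD6 against EBD2 it called 9 and 6 members, and 2655 and 2263 of all genes. Every other count of members or genes called higher or lower stayed within 1.5 times its value under the alternatives run. Members without a call went from 7, 5 and 7 to 18, 23 and 21 in the test against a fold of 1.5. They went from 7 to 3 in EBD6 against EBD2 with 9 separate libraries, where 73.4% of all genes were called. The main fit called 66.1% of all genes there. When a library was left out, members without a call went from 5 to as many as 11 in EBD6 against EBD5.

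The groups share replicate numbers, but the labels do not say that a number marks a shared culture, and deviations of same-numbered libraries correlated by only -0.0871 to 0.0467. With the replicate block and 9 separate libraries, 17 members were higher and 13 lower in EBD5 against EBD2. The counts were 13 and 17 in EBD6 against EBD5, and 17 and 13 in EBD6 against EBD2. This fit gained 2 calls and lost 1. The 9 separate libraries without the block called 73.7%, 74.9% and 73.4% of all genes in these comparisons. Depth limits Car9 and Ankrd37 most, and 5 members had under 100 counts in some library.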
